A study of Mus musculus with 12 samples.

Results

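Transposable element (TE) copies of 501 to 1000 bp that lie outside genes were examined in male germ cells of newborn mice with and without a functional Morc1. A copy was a member when its listed length (last base minus first base plus 1) was 501 to 1000 bp and it overlapped no gene of GENCODE release M21 (GRCm38) on either strand. Of 298593 copies in the deposited TE table, 53355 have this length, and 25676 of those overlap a gene, which leaves 27679 members. Each of these had at least 10 reads over the 6 libraries, with a median of 20 and a highest of 5479. The members are therefore copies that gave at least some RNA here, and not every such copy of the genome.

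The cells came from testes at postnatal day 0 (P0) of mice carrying the Mvh-Venus transgene, a fluorescent reporter of germ cells, and are labelled gonocytes, which are the germ cells of a testis before and shortly after birth. The control libraries are Morc1 (+/-), called het here, and the others are Morc1 (-/-), called KO. There are 3 libraries of each, and no wild-type library was part of the comparison, so the controls also lack 1 allele of Morc1. The labels do not say whether the replicates of a group came from separate animals or pools, so p-values measure the spread between these samples, which may be technical. Where 3 values of a group are given, they follow replicates 1 to 3.

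TEs are stretches of DNA that copy or once copied themselves through the genome. LTR elements carry a long terminal repeat (LTR) at each end that can start transcription, and an LTR often remains alone after recombination. LINEs are copied from RNA and are frequently cut short at their 5′ end. Copies of this length can thus be lone LTRs, pieces of longer elements or 5′-truncated LINEs, while copies over 5 kb, called long copies here, can be near full length. MORC1 is an ATPase of the MORC family, which is known for the silencing of TEs in the male germ line. The table gives place, length and strand of a copy but no family, so none is named here.

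Among the tested members, 4 that were higher in KO cover a transcription start in RefSeq, each that of a long non-coding RNA on the strand of the copy. Their RefSeq promoter windows (GRCm38.p6, 250 bases before to 50 after the start, 5′ to 3′ on the strand of the RNA) are shown because they give the sequence of the copies around the start. Capitals mark matches, on either strand, to the motifs TATAAA, a letter run of many promoters, CCAAT, another, and AATAAA, the usual signal for a transcript's 3′ end. On the other strand CCAAT reads ATTGG. These copies were chosen after their values were seen. The Gm42093 window lies at chr11:109734577-109734876 on the plus strand, and the other windows lie on the minus strand at chr16:31578434-31578733 (Gm34032), chr11:57558277-57558576 (Gm51895) and chr7:48741814-48742113 (Gm45086).
Gm42093 window: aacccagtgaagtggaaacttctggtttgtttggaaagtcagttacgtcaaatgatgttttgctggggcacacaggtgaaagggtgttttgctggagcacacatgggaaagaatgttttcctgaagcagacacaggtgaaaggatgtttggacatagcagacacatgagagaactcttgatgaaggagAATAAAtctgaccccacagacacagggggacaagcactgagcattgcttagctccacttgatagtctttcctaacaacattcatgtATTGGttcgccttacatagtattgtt
Gm34032 window: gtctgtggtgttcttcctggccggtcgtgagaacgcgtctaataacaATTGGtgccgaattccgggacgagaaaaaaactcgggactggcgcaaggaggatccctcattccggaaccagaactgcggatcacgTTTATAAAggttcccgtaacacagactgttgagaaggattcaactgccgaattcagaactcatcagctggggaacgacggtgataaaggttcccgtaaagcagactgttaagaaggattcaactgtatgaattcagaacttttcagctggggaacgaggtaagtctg
Gm51895 window: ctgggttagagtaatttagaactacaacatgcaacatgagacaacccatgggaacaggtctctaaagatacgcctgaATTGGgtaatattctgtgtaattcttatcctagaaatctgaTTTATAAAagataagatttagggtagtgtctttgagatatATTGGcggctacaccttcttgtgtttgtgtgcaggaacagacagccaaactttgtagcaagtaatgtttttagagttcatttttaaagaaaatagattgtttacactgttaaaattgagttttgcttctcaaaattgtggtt
Gm45086 window: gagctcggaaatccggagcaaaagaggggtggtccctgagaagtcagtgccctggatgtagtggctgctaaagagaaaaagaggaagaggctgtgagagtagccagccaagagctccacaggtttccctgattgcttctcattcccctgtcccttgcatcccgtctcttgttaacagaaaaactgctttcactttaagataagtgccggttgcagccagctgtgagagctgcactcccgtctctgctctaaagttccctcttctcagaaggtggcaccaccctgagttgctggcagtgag

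The copies hold 293, 253, 300 and 300 of the bases of these windows, in the order shown. In the Gm34032 window TATAAA stands at base -115, with the start as base 0, and in the Gm51895 window at base -130, and each match overlaps 1 on the other strand. AATAAA stands at base -62 of the Gm42093 window, on the strand of the RNA. TATAAA was found in 13.6% of the 32851 RefSeq windows, CCAAT in 37.4% and AATAAA in 19.6%. The Gm45086 window holds none of these letters, which says nothing about other sequences that can start transcription. GC content was 43.7% for Gm42093, 48.7% for Gm34032, 34.3% for Gm51895 and 52.7% for Gm45086, beside a median of 52.7% over all windows. The Gm34032 window holds 18 CpG dinucleotides, and the others hold 2, 2 and 5.

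A search of all RefSeq windows for relatives of these sequences (at least 80% identity over at least 100 bases) found 15 other windows like that of Gm34032, of which 10 lie on the X chromosome. Their identity ran from 80.5% to 95.4%. Listed copies cover the starts of 12 of them, 1 is tested, and it was not called: the 6427-bp copy at the start of Gm52437 had a log2 fold change of 1.35 (limma, adjusted p = 0.325). The Gm51895 window had 2 relatives, the Gm42093 window 4 and the Gm45086 window none. How reads that match several such places were counted is not given in the sources used here.

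The copy at the start of Gm42093 (chr11:109734584-109735239, 656 bp, plus strand) was low in het, at 6.33, 2.24 and 3.83 normalized counts. The KO libraries had 154, 97.5 and 193. Every KO library lay far above the highest het library, and the log2 fold change was 4.88 ± 0.53 (SE; limma, adjusted p = 0.000398). Normalized counts are reads divided by 1 size factor per library, and fold changes are fitted on log2(normalized count + 1). The copy at the start of Gm34032 (chr16:31578017-31578686, 670 bp) had 0, 6.73 and 1.92 in het and 72.5, 61.1 and 27.4 in KO. Its groups were also apart, with a log2 fold change of 4.16 ± 0.85 (adjusted p = 0.00615). The copy at the start of Gm51895 (chr11:57558249-57559002, 754 bp) had 2.11, 1.12 and 0 in het against 31.5, 25.5 and 23.1 in KO (log2 fold change 3.87, adjusted p = 0.0123). The copy at the start of Gm45086 (chr7:48741645-48742340, 696 bp) was less low in het, at 6.33, 5.61 and 5.75, and reached 38.2, 55.7 and 29.1 in KO (log2 fold change 2.56, adjusted p = 0.00975). All 4 had het means under 10, at 4.14, 2.88, 1.08 and 5.90 in the order given. A copy was tested only at a mean of at least 10 over the 6 libraries, so these entered only through KO. Their separation and p-values are therefore a description only. Most copies covering RefSeq starts were not called. Of 78 listed members that cover such a start, 25 were tested, these 4 rose (16% of those tested), and the rest were not called. That share was near the 13.9% of all tested members and the 15.6% of all tested copies that rose. The median log2 fold change of the 25 was 0.05.

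Across all tested members, 460 rose and 51 fell in KO (limma on log2(normalized count + 1) over all tested copies, Benjamini-Hochberg adjusted p under 0.05). A copy was tested when its mean over the 6 libraries was at least 10, which left 3320 of 27679 members (11.99%). The higher calls are 13.9% of the tested members, beside 15.6% of all 49781 tested copies, and the lower calls are 1.54% beside 0.735%. The share that rose was thus near that of the whole table. It was below that of the 20598 tested intergenic copies of any length, of which 28.1% rose and 1.03% fell. All 460 and all 51 had groups that did not overlap. In all, 778 tested members (23.4%) had every KO library above every het library, beside 22.8% of all tested copies, and 292 had every KO library below, beside 7.58% of all tested copies. The remaining 2809 tested members were not called either way. The number of rises was 249 without KO replicate 1 and 300 without KO replicate 2.

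Over tested intergenic copies of any length the median log2 fold change was 0.80. That of the tested members was 0.11, beside 0.03 over all tested copies, so the typical member was near the middle of the table. It was 0.42 with the gene size factors, which moved the median of all tested copies to 0.34, and -0.32 with quantile normalization, which moved it to -0.41. The members that rose form a long upper tail: fitted log2 changes of the called rises ran from 1.37 to 6.998, and 376 of the 460 were over 3. The called falls ran from -1.57 to -4.90. The 460 rises lie at 408 places when members within 10 kb of each other are joined, and the 51 falls at 49.

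**Figure D1:**
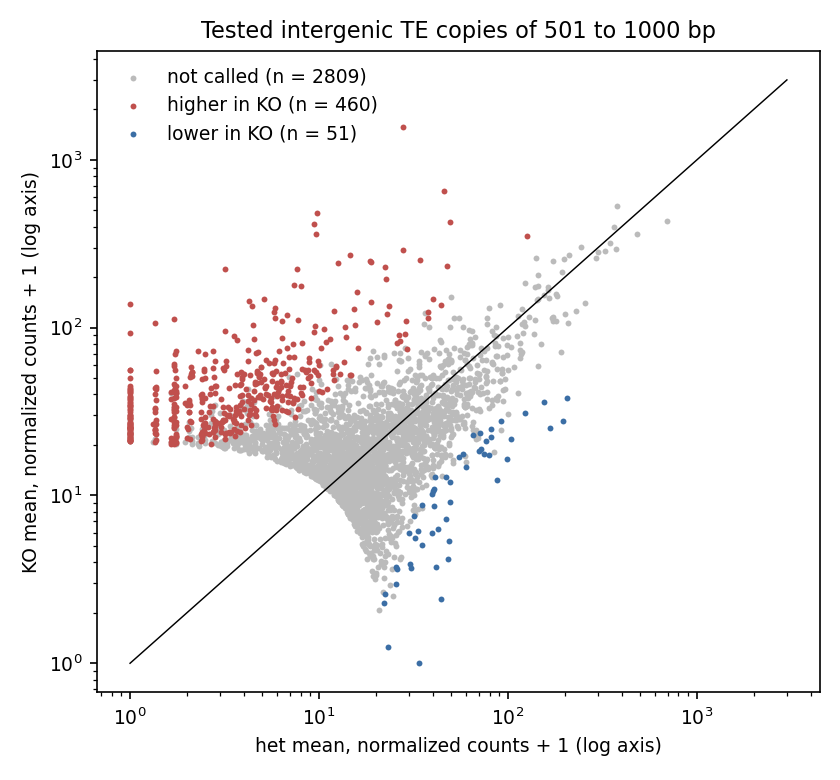
Mean normalized count + 1 of each of the 3320 tested members in het (x axis) and KO (y axis), both on log axes, with n = 3 libraries per group and the line of equal values drawn. The 460 called rises (red) lie mostly where the het mean is near 0, the 51 called falls (blue) lie below the line, and the curved lower edge of the points is the limit that a mean of at least 10 sets.

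Most of the rises began from almost nothing. Of the 460, 66 had 0 reads in the het group and 188 had at most 3 reads in each het library. A het mean under 10 was found for 416 of them, and these copies entered the test only because they were high in KO. Such copies had to differ, so their number is not a measure of how many members respond. Of the 2309 tested members with a het mean of at least 10, 44 rose (1.91%). Without any filter, 792 of all 27679 listed members rose (2.86%) and 81 fell (0.293%), beside 2.99% and 0.207% of all listed copies. The highest KO value of a rise was in KO replicate 1 for 152 copies, in replicate 2 for 134 and in replicate 3 for 174, so the highest values were spread over the KO libraries.

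Together the 460 rises had 2076, 1872 and 2325 reads in het. Their KO reads were 28301, 33453 and 32576. The 10 with most reads held 18.7% of the KO reads of the rises, and the single highest held 5.73%. The 51 falls had 2952, 2559 and 3528 reads in het and 745, 710 and 664 in KO. These sums follow from the calls and are given as a description only.

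Over all listed members, called or not, the het reads were 0.411, 0.384 and 0.611 per 100 gene reads. Those of KO were 0.573, 0.852 and 0.699. On average KO had 0.708 ± 0.140 (SD, n = 3), 1.51-fold the het mean of 0.469 ± 0.124, but het replicate 3 lay above KO replicate 1, so the groups overlapped. As a share of the reads of the TE table, the members took 6.28%, 6.38% and 7.02% in het and 6.41%, 6.53% and 7.42% in KO, a difference of 0.225 percentage points, smaller than the spread. The read totals of the TE table ran from 1974504 to 2511317 in het and from 2868024 to 3703419 in KO, and those of the gene table from 28363683 to 32816861 over all libraries.

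Place in the genome separated members more than their length did. A long copy lies within 1 kb of 1100 listed members, over 1 to 10 kb from 3356, over 10 to 100 kb from 13182 and over 100 kb from 10041. The class within 1 kb includes members that overlap a long copy. Of its 132 tested members, 14 overlap one on the same strand and 2 on the opposite strand. How reads in such overlaps were counted is not given in the sources used here. In the class within 1 kb, the het reads per 100 gene reads numbered 0.0107, 0.00993 and 0.0200. Those of KO numbered 0.0289, 0.0453 and 0.0321. All KO libraries were above all het libraries, and the KO mean was 2.62-fold the het mean. The ratio was 2.06 over 1 to 10 kb, where the groups were apart as well. It was 1.67 over 10 to 100 kb and 1.21 over 100 kb, where they overlapped. Measured as a share of the TE table's reads, the class over 100 kb was lower in KO, at 2.60%, 2.36% and 2.83% against 3.12%, 3.21% and 3.12% in het, so its direction depends on the denominator. The ratios of the nearer classes by that measure stayed above 1, at 1.81, 1.42 and 1.15.

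**Figure D2:**
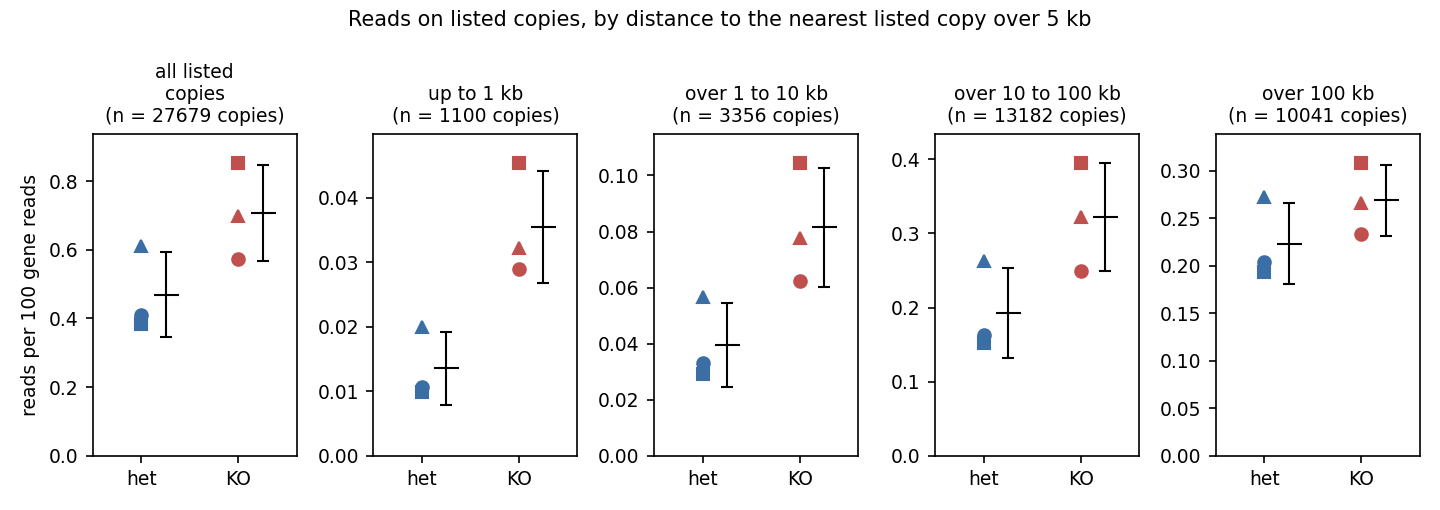
Reads per 100 gene reads in each library (y axes start at 0 and differ between panels) for all listed members and for the 4 classes of distance to the nearest listed copy over 5 kb; circles, squares and triangles are replicates 1, 2 and 3, and black marks are the mean and SD of 3 libraries. The KO mean is 2.62-fold the het mean within 1 kb and 1.21-fold over 100 kb, and het replicate 3 is the highest het library in every panel.

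The share of calls was higher near long copies than far from them, with the classes within 10 kb in the reverse order. Within 10 kb of a long copy, 115 of 448 tested members rose (25.7%), against 120 of 1497 (8.02%) over 100 kb away. The finer classes gave 31 of 132 (23.5%) within 1 kb, 84 of 316 (26.6%) over 1 to 10 kb and 225 of 1375 (16.4%) over 10 to 100 kb. The median log2 fold changes were 1.36, 0.66, 0.32 and -0.14 from the nearest to the farthest class, and that of the farthest became 0.16 with the gene size factors. Among members with a mean of 10 to 20, where reads are fewest, the shares were 19.3%, 21.4%, 12.6% and 5.16% in the same order. Among those over 20 to 50 they were 26.5%, 34.4%, 22.7% and 11.8%. Most of the rises passed the filter only through KO, so the shares were also taken in sets whose choice depends less on KO. Neither set is free of KO. Listed members had at least 10 reads over the 6 libraries together, and tested members a mean of at least 10 over them. Without the filter on low values, 6.73%, 4.32%, 2.98% and 1.79% of listed members rose from the nearest to the farthest class. Of tested members with a het mean of at least 10, a restriction chosen after the data were seen, 5.97%, 4.07%, 2.39% and 1.01% rose (4 of 67, 7 of 172, 21 of 879 and 12 of 1191). The median log2 fold changes were 1.09, 0.62, 0.34 and -0.16 without the filter. With a het mean of at least 10 they were 0.10, -0.36, -0.33 and -0.41. Choosing copies by their het level can itself lower KO over het. Over all 2309 such members the median was -0.37, beside 0.11 for all tested members. The sign of these medians is therefore not read. Without KO replicate 1 the shares within 10 kb and over 100 kb were 13.2% and 4.14%, without replicate 2 they were 17.2% and 4.54%, and without replicate 3 they were 16.3% and 5.21%. These shares are counts over copies of the same 6 libraries and carry no test. Falls were few in every class, at 1, 5, 26 and 19 from nearest to farthest.

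What the neighbouring long copy did went with the share. Of members whose nearest long copy within 10 kb rose, 70 of 184 rose themselves (38.0%, median log2 fold change 2.11). Where that long copy was tested and not called, 24 of 163 rose (14.7%, median 0.10), and where it was not tested, 21 of 99 (21.2%). Here too, members had entered through KO alone. Without the filter, 129 of 1730 listed members beside a risen long copy rose (7.46%, median log2 fold change 1.14). Beside a long copy tested and not called, 42 of 1397 rose (3.01%, median 0.35). Of members with a het mean of at least 10, 5 of 70 rose beside a risen long copy (7.14%, median 0.13) and 3 of 108 beside one not called (2.78%, median -0.40). These last counts are small, and in percentage points and medians the contrast is smaller than among all tested members. The choice by het level can lower these medians too, so their sign is not read. Over the 349 pairs of a tested member and its tested long copy, which involve 279 long copies, Spearman's rho of the log2 fold changes was 0.553. It was 0.287 over the 180 pairs with a member het mean of at least 10. Without the filter on the member, but with the long copy tested, it was 0.331 over 3138 pairs. With no filter on either copy it was 0.312 over 4456 pairs. The pairs share libraries and in part long copies, so rho describes the pairs and has no p-value. Of the 3 members that fell beside a rising long copy, the one on chromosome 19 is described among the falls.

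**Figure D3:**
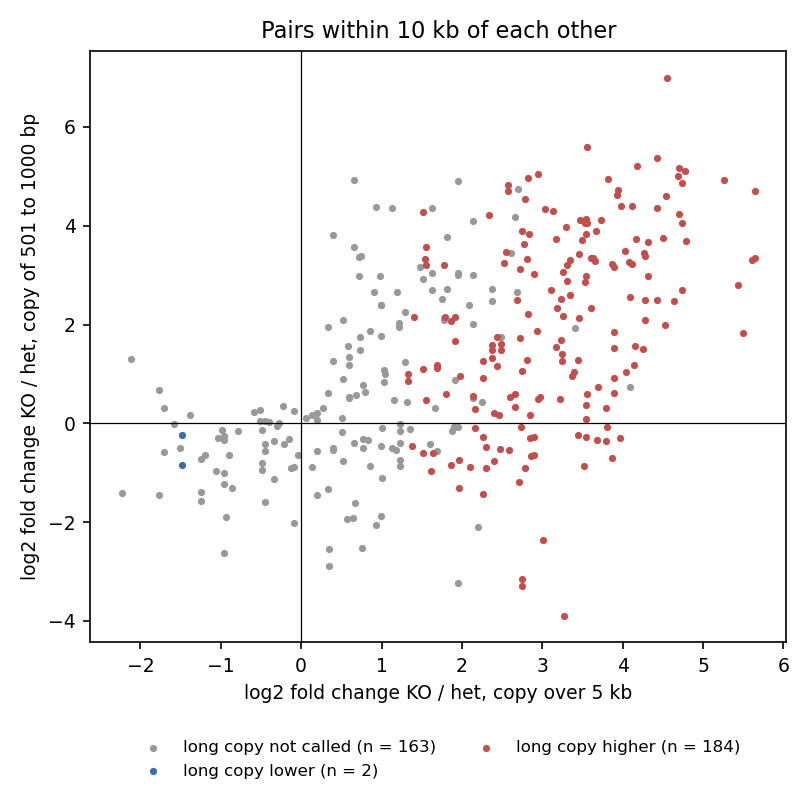
Log2 fold change of KO over het of each tested member (y axis) against that of the nearest long copy within 10 kb (x axis), for 349 pairs coloured by the call of the long copy. Most of the 184 pairs with a risen long copy (red) lie in the upper right, and 3 of their members were called lower.

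Counts by side and strand of the member were close to each other. Beside the 5′ end of a long copy 39 of 148 members on the same strand rose (26.4%), and 27 of 107 on the opposite strand (25.2%). Beside the 3′ end the counts were 24 of 99 (24.2%) and 18 of 78 (23.1%). A further 14 members overlapped a long copy on the same strand, and 7 of them rose. Whether the libraries or the counting kept strand is not given in the sources used here, so reads from overlapping copies on opposite strands cannot be told apart.

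Rises also sat in groups of risen copies of any length. Of the 460, 267 (58.0%) had another risen copy within 10 kb, against 294 of the 2860 tested members that did not rise (10.3%). In the class over 100 kb from a long copy, the counts were 66 of 120 (55.0%) and 68 of 1377 (4.94%), so groups formed there too. The other 54 rises of that class had no other risen copy within 10 kb. Of the 460 rises, 416 had passed the filter only through KO. These counts were not taken without the filter, so they are a description only. Directly abutting copies showed this most: where a copy on the same strand within 100 bases had risen, 93 of 142 members rose (65.5%). Where such an abutting copy was tested and none had risen, 27 of 396 rose (6.82%), and with no abutting copy 229 of 2099 rose (10.9%). Where there were abutting copies but none was tested, 111 of 683 rose (16.3%). Of members with a het mean of at least 10 the same counts were 9 of 21 (42.9%), 6 of 318 (1.89%), 22 of 1561 (1.41%) and 7 of 409 (1.71%). Abutting listed copies can be parts of 1 element, and whether reads spanning both were counted for both is not given in the sources used here.

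Distance from genes ran the other way. Within 1 kb of a gene 22 of 322 tested members rose (6.83%), and over 1 to 10 kb away 98 of 1349 (7.26%). The share was 17.5% over 10 to 50 kb, 22.2% over 50 to 100 kb and 33.3% over 100 kb away (78 of 234). Without the filter on low values the shares from nearest to farthest were 1.92%, 1.89%, 3.18%, 3.67% and 4.53%. The median log2 fold change was -0.22 within 1 kb and 1.45 over 100 kb away, or -0.14 and 0.66 without the filter, and -0.52 and -0.15 for members with a het mean of at least 10. The last pair comes from a choice by het level, which can lower such medians, so their sign is not read. The gene size factors also moved medians, and that of all members within 10 kb of a gene went from -0.13 to 0.18 with the gene size factors. The median distance to a gene was 9.89 kb for tested members, 27.9 kb for the rises and 9.35 kb for the falls. Long copies and genes are themselves unevenly spread, and both distances counted side by side: over 10 kb from any gene, the shares were 31.2%, 32.2%, 21.1% and 13.8% from the nearest to the farthest class of long copy, and within 10 kb of a gene they were 5.13%, 15.7%, 9.91% and 4.58%. The first of these rests on 2 rises among 39 members.

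**Figure D4:**
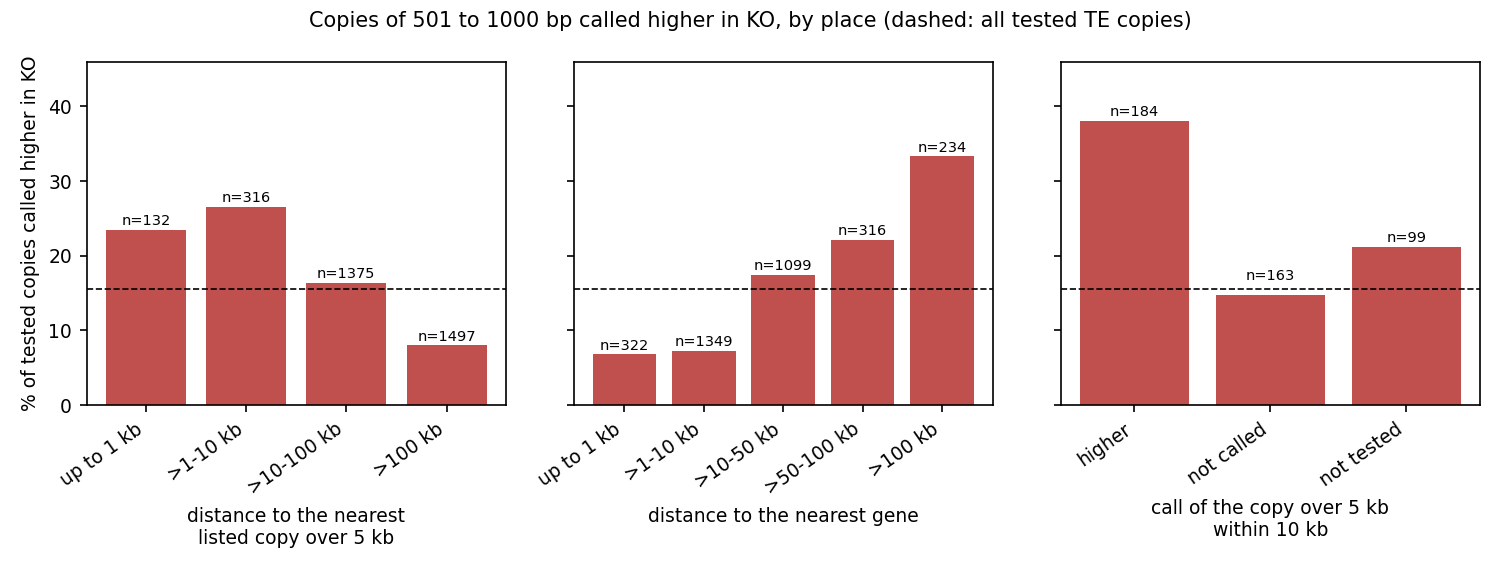
Percentage of tested members called higher in KO (bars from 0, n tested above each) by distance to the nearest listed copy over 5 kb, by distance to the nearest gene, and by the call of the long copy within 10 kb, with the share of all tested copies (15.6%) as a dashed line. The class of 2 members beside a long copy called lower is not drawn. The share is 8.02% over 100 kb from a long copy and 6.83% within 1 kb of a gene, and it is 38.0% beside a risen long copy.

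Length within the range made a smaller difference. Up to 600 bp 10.3% of tested members rose, and in the following steps of 100 bp 14.9%, 16.2%, 13.6% and 16.7%. Within 50 bp of the lower limit, 10.5% of the intergenic copies just too short and 11.8% of the members just long enough rose. Within 50 bp of the upper limit, the shares were 17.7% of the members and 18.6% of the copies just too long. The median log2 fold changes were 0.53 for those members and 0.02 for those copies. Copies of the same length that overlap a gene rose in 2.77% of 5098 tested cases, with a median log2 fold change of -0.24, and the groups were fitted together. Intergenic copies over 1 to 5 kb rose in 25.8% of tested cases.

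The 6 largest rises within 10 kb of a long copy all had 4 or fewer reads in every het library. A 932-bp copy at chr7:82163046-82163977 (minus strand), 1.33 kb from the lincRNA gene Gm32850, was without reads in het. In KO it had 216, 93.7 and 101 normalized counts. It was at least 43.6-fold higher, taking 3 reads per het library as the floor, and its fitted log2 fold change of 6.998 ± 0.697 was the largest of all members (adjusted p = 0.000398). A fitted value against a group at 0 depends on the added 1 and is no bound. The 6178-bp long copy 1.81 kb away had 2.11, 2.24 and 2.88 in het and 81.1, 108 and 55.6 in KO, and 9 other copies within 10 kb had risen. Among these, the one 4 bases away (321 bp, same strand) was also at 0 in every het library and had 52.5, 13.9 and 12.8 in KO. Copies there that were not called are not described here.

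The 850-bp copy at chr2:11945867-11946716 had 0, 2.24 and 0 in het and 63.9, 88.2 and 61.6 in KO (log2 fold change 5.59, adjusted p = 0.00088). Its long copy of 6262 bp, 2.24 kb away, had 5.27, 8.97 and 20.1 in het against 108, 133 and 145 in KO. The groups were apart for both. The 625-bp copy at chr15:61822787-61823411 had no het read and 56.3, 30.2 and 38.5 in KO, at least 13.3-fold higher. It stands among 5 other risen copies, of which 3 are of the same length class: 822, 685 and 726 bp, all on the opposite strand. The 589-bp copy at chr12:42364792-42365380 had no het read and the most even KO values of these 6, at 32.4, 40.2 and 35.9 (at least 11.5-fold higher). The 575-bp copy at chr11:8052567-8053141 had 0, 4.49 and 0 in het and 51.5, 41.8 and 112 in KO, and KO replicate 3 was the highest. The 577-bp copy at chr3:18560266-18560842 had no het read and 41.0, 17.0 and 52.2 in KO, with KO replicate 2 the lowest (at least 11.7-fold higher).

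Among the largest rises over 10 to 100 kb from a long copy, the 719-bp copy at chr17:4399574-4400292 was the most abundant of all risen members. It had 31.6, 42.6 and 6.71 normalized counts in het and 1609, 1018 and 2055 in KO, so that even the lowest KO library was over the highest het library by more than an order of magnitude. The ratio of means was 57.8 and the log2 fold change 6.08 ± 0.59 (adjusted p = 0.000398). It lies 235 kb from the nearest gene, and 8 other copies within 10 kb had risen. The 404-bp copy that abuts it on the same strand had 17.9, 17.9 and 4.79 in het and 543, 307 and 830 in KO, in the same order of KO libraries.

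The 755-bp copy at chr18:29163357-29164111 had 2.11, 4.49 and 0 in het and 196, 249 and 228 in KO (log2 fold change 6.45, adjusted p = 0.000398). The 731-bp copy at chr6:75735768-75736498 had no het read and 44.8, 79.7 and 151 in KO, at least 29.3-fold higher. The 760-bp copy at chr6:44290489-44291248 had 2.11, 0 and 0 in het and 47.7, 164 and 125 in KO (log2 fold change 6.10). KO replicate 1 was the lowest KO library for these 3 copies. The last had no other risen copy within 10 kb, and the nearest gene is 207 kb away.

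Over 100 kb from any long copy, large rises were found too. The 746-bp copy at chr11:24411509-24412254 had 1.05, 0 and 0 in het and 122, 97.5 and 95.8 in KO (log2 fold change 6.37 ± 0.69, adjusted p = 0.000398). The 923-bp copy at chr16:86196531-86197453 had 20.04, 4.49 and 1.92 in het and 562, 327 and 560 in KO, a ratio of means of 54.8. It belongs to a run of 6 risen copies on the plus strand, which holds 2 more members, the longer of 905 bp. These had 249.9, 70.4 and 208 and 413, 299.5 and 364 in KO, and their highest het value was 10.5. The 3 members of the run were all highest in KO replicate 1 and lowest in KO replicate 2.

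The 880-bp copy at chr18:8393810-8394689 had no het read and 39.1, 61.1 and 64.2 in KO, at least 17.5-fold higher, with no other risen copy within 10 kb. The 692-bp copy at chr11:109762819-109763510 had 2.11, 0 and 7.67 in het and 138, 204 and 89.8 in KO (log2 fold change 5.52), 38 bases from a risen copy of 1275 bp. The 645-bp copy at chr4:9260111-9260755 had 0, 0 and 3.83 in het and 62.0, 75.9 and 76.1 in KO. RefSeq, unlike GENCODE M21, places it inside Clvs1, which encodes a protein of endosomal sorting. The 641-bp copy at chr16:42474652-42475292 had 5.27, 0 and 0 in het and 71.5, 66.6 and 77.0 in KO. Its KO libraries had the smallest relative spread of these 6. It stands alone, 338 kb from the nearest other risen copy and 134 kb from Gap43, a gene of neuronal growth cones whose log2 fold change was 0.01 (adjusted p = 0.997).

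**Figure D5:**
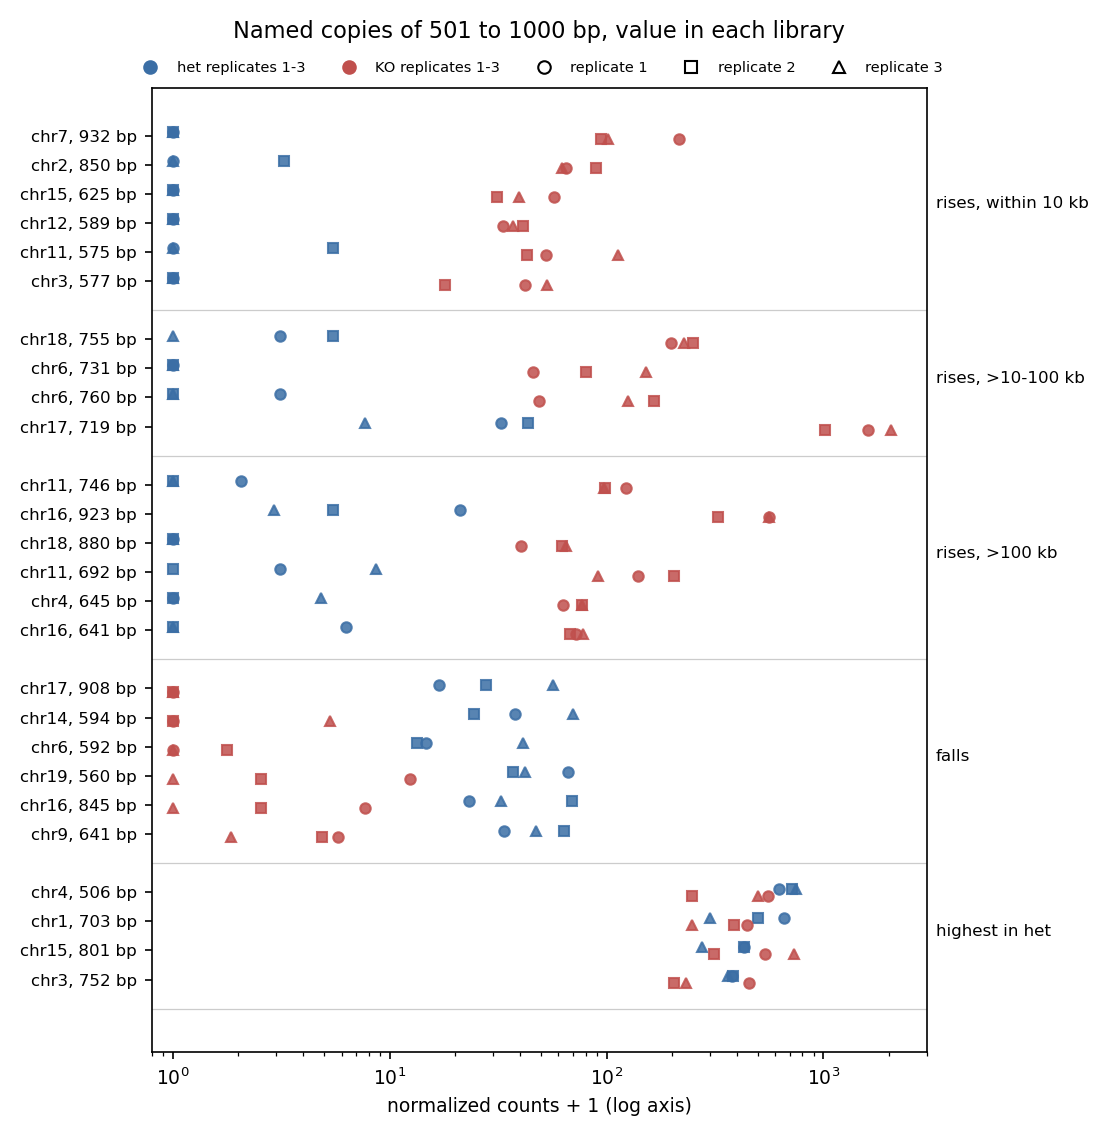
Normalized count + 1 (log axis) in each library for the named copies, labelled by chromosome and length, with het in blue and KO in red and 1 symbol per replicate; groups are rises within 10 kb, over 10 to 100 kb and over 100 kb from a long copy, falls, and the copies highest in het. In the 16 rises and 6 falls no het point overlaps a KO point, and in the 4 copies highest in het the groups lie close together.

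The 6 largest falls were copies with moderate het levels that were almost lost in KO. Of the 51 falls, 27 had a KO mean under 10, these 6 among them, and so entered the test only through het. The 908-bp copy at chr17:12577666-12578573, 5.56 kb upstream of Slc22a2, an organic cation transporter gene, had 15.8, 26.9 and 55.6 in het and 0 reads in KO. It was at least 12.7-fold lower, and its log2 value fell by 4.90 ± 1.07 (adjusted p = 0.0087). The 594-bp copy at chr14:91739170-91739763 had 36.9, 23.6 and 69.0 in het and 0, 0 and 4.28 in KO. Het replicate 3 was the highest library for both. Their calls were lost without some het libraries: the adjusted p of the first was 0.161, 0.293 and 0.174 without het replicate 1, 2 and 3, and that of the second 0.0777 and 0.0583 without het replicates 1 and 3.

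The 592-bp copy at chr6:106756902-106757493 had 13.7, 12.3 and 40.3 in het and 0, 0.774 and 0 in KO (log2 change -4.05, adjusted p = 0.0328). Another fall lies nearby at chr6:106764442-106765375 (934 bp), with 30.6, 12.3 and 21.1 in het and 4.77, 0 and 0 in KO (adjusted p = 0.0461). The nearest gene to the first, Il5ra, which encodes the interleukin-5 receptor alpha chain, had a log2 change of -3.56 that did not pass (adjusted p = 0.336). The call of the first copy was lost without any 1 het library (adjusted p 0.332 to 0.379), with the gene size factors (0.0578) and with the replicate block in limma (0.0772).

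The 560-bp copy at chr19:52853130-52853689 had 65.4, 35.9 and 41.2 in het and 11.4, 1.55 and 0 in KO (log2 change -3.89, adjusted p = 0.0119). It lies 7.03 kb from a 5386-bp long copy that moved the opposite way, from 14.8, 4.49 and 23.0 in het to 135, 116 and 115 in KO. The 845-bp copy at chr16:79559816-79560660 had 22.1, 68.4 and 31.6 in het and 6.68, 1.55 and 0 in KO. Without het replicate 1 the adjusted p of the former was 0.0773, and without het replicate 2 that of the latter was 0.171. With a pseudocount of 0.1 they were 0.07 and 0.0709, and with the replicate block in edgeR that of the latter was 0.0568. The 641-bp copy at chr9:6573584-6574224 had 32.7, 62.8 and 46.01 in het, against 4.77, 3.87 and 0.855 in KO (log2 change -3.64 ± 0.70, adjusted p = 0.00439). It kept its call without any 1 library.

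Het replicate 3 held the highest value for 25 of the 51 falls, replicate 1 for 15 and replicate 2 for 11, and it was also the highest het library for 1328 of all 3320 tested members. Without het replicate 1 there were 12 falls, and without het replicate 2 there were 15. Without het replicate 3 there were 45. Markers of Leydig cells, the steroid-producing cells between the testis tubules, moved with this library. Their summed level over 5 genes was 24921 normalized counts in het replicate 3, 776 and 1079 in the other het libraries and 510 to 1075 in KO. All 5 were lower on average in KO, with 0 called by limma and 0 at an unadjusted p under 0.05, and none of them was at 0 in all libraries. Markers of Sertoli cells, the supporting cells of the tubules, summed to 17536 to 37259 in het and 12581 to 18099 in KO, and all 7 were lower on average in KO, with none called by limma and 3 at an unadjusted p under 0.05. In bulk RNA, fewer cells of a type and less RNA per cell cannot be told apart. The part of these cells in the values of the members was not tested.

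The sums of 10 germ cell markers, Ddx4 and Dazl among them, overlapped, at 150089 to 218372 in het and 152763 to 224455 in KO, with 0 called by limma and 0 at an unadjusted p under 0.05. Those of 9 markers of other testis cells and blood were 3126 to 3749 and 2917 to 4668, with 0 called and 0 at an unadjusted p under 0.05 as well. Morc1 itself stood at 7248, 7485 and 4126 normalized counts in het and at 1360, 1343 and 1794 in KO (log2 fold change -2.03 ± 0.27, adjusted p = 0.0109), as the labels have it. Its adjusted p was 0.0511 without het replicate 1, 0.101 without KO replicate 1 and 0.0663 without KO replicate 3, with the groups apart throughout.

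The members most abundant in het were not called. The 506-bp copy at chr4:129382601-129383106 had 625, 712 and 748 in het and 556, 246 and 498 in KO (log2 fold change -0.76 ± 0.39, adjusted p = 0.257). Its groups were apart, but the difference did not pass. It covers the start of the RefSeq RNA C330020E22Rik. The 703-bp copy at chr1:69379224-69379926 had 655, 499 and 298 in het against 444, 387 and 245 in KO. The 801-bp copy at chr15:66524289-66525089, 1.12 kb from Tmem71, had 429, 429.6 and 275 in het against 538, 313 and 734 in KO. The 752-bp copy at chr3:18008005-18008756 had 378, 380.3 and 360.4 in het against 452, 204 and 231 in KO. The groups of these 3 overlapped, with adjusted p of 0.629, 0.602 and 0.577. The nearest gene lies 2.42, 1.15, 1.12 and 0.049 kb away from these copies in turn.

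In the gene table, 112 of 26005 tested genes rose (0.431%) and 11 fell (0.0423%). Of these, 50 had a listed member within 10 kb and 7 a tested one, and 3 of those 7 had a member that had risen. None had a member that had fallen. The share of all tested genes with such members nearby was not counted, so these counts have no background beside them. The risen members beside these genes had het values under 10 in every library, and so entered the test only through KO. Of the 1671 tested members within 10 kb of any gene, 120 rose. The pseudogene C87114 (chromosome 16) had no het read and 90.04, 57.9 and 87.2 normalized counts in KO (log2 fold change 6.28, adjusted p = 0.0106). The 554-bp member at chr16:12409249-12409802, 0.071 kb upstream on the same strand, had 3.16, 0 and 0 in het and 35.3, 46.4 and 10.3 in KO (adjusted p = 0.0217). Both were all but absent in het.

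The lincRNA gene Gm41318 rose from 26.7, 19.3 and 46.8 to 291, 322 and 209 (log2 fold change 3.17, adjusted p = 0.0109). The 590-bp member at chr15:49212619-49213208, 9.30 kb downstream, had 0, 0 and 1.92 in het and 13.4, 79.7 and 16.3 in KO. KO replicate 2 was the highest for both. The olfactory receptor gene Olfr961 rose from 8.58, 1.93 and 2.93 to 53.4, 86.8 and 81.3 (log2 fold change 3.93, adjusted p = 0.0391). It has 2 risen members upstream on the opposite strand: the 524-bp copy at chr9:39634652-39635175, with no het read and 40.1, 14.7 and 32.5 in KO, and the 790-bp copy at chr9:39635664-39636453, with 3.16, 2.24 and 0 in het against 21.9, 26.3 and 32.5 in KO. The tested members beside the other 4 changed genes (Cdh26, C8a, Gm20091 and Gm8141) were not called. The number of rises beside a risen gene was 0 without KO replicate 1 or KO replicate 3, 1 without KO replicate 2 and 2 without het replicate 2.

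Whether called or not, the nearest tested gene within 10 kb was above 0 for 45 of 55 rises, with a median log2 fold change of 0.66. For 18 falls it was below 0 in 11, with a median of -0.06, and over all 1207 members with such a gene the median was 0.06. The share above 0 over these 1207 was not counted, so 45 of 55 has no background beside it. Most rises had also passed the filter only through KO. Within 10 kb of a gene, the strand and side of the member again differed little, from 22 of 404 (5.45%) downstream on the opposite strand to 33 of 399 (8.27%) upstream on the same strand. RefSeq places 548 tested members (16.5%) inside a gene that GENCODE M21 does not have there, and 29 of the rises (6.30%) and 6 of the falls (11.8%). By chromosome, the share that rose ran from 8.75% of 80 tested members on chromosome 19 to 21.01% of 138 on chromosome 16, leaving aside the Y chromosome with 2 tested members and no call. Both strands gave like shares, 13.98% for plus and 13.7% for minus.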

How the data were processed

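RNA of sorted P0 germ cells was sequenced after low-input cDNA synthesis (SMART-seq v4) and library preparation with a TruSeq kit, per the labels' protocols. The submitters' processing notes name bcl2fastq 2.20, cutadapt 1.18, HISAT2 2.1.0, featureCounts 1.5.2 and DESeq2 1.26.0. Strand handling, reads that match several places and the repeat annotation are not given in the sources used here. The deposited values of both tables are a signal that the authors made from read counts by 1 size factor per library, and the name of the gene table gives DESeq2. All values (100%) were whole multiples of 1 step per column within 0.01, which gave back the reads. The gene reads of KO replicate 1, whose step is close to 1, entered only reads per 100 gene reads and the count tests. Positions were read as 1-based GRCm38, and 35560 of 35666 genes matched GENCODE M21.

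The test, for copies and genes averaging at least 10, was limma 3.58.1 (R 4.3.3; two-sided, eBayes with a trend after lmFit, no covariates, Benjamini-Hochberg) on log2(normalized count + 1), which understates the change of low copies. Alternatives were edgeR 4.0.16 and DESeq2 1.42.0 on the recovered reads, other pseudocounts, filters, scalings, a replicate block and leaving out each library. The scripts were tested on simulated data. Distances are bases between features (bedtools 2.31.1), and related windows were found with blastn 2.17.0. Intervals were not given, since copies of 1 library are not independent. A floor of 3 reads covers counting error only.

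The copies named are the 6 largest called rises within 10 kb of a listed copy over 5 kb, the 4 largest over 10 to 100 kb away, the 6 largest over 100 kb away, the 6 largest falls and the 4 highest in het, with non-overlapping groups required of calls. Changed genes described are those called within 10 kb of a called member, with Morc1. Other genes are named as nearest genes, as markers, or as called genes whose tested members were not called. The members and lists were chosen with earlier results of these data known. Sequences other than RefSeq windows were not analysed here, and neither were the P3 samples.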

Additional observations from a re-analysis of the deposited data

How the results depend on the processing

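The share of rises was lower over 100 kb from a long copy than within 10 kb under every alternative run, and no named copy reversed. The 16 named rises kept their calls, and the 4 copies highest in het stayed uncalled, under every alternative that tested them, while the falls lost 15 of 96 calls. Counts moved more (460 rises and 51 falls as reported). A pseudocount of 0.1 gave 282 and 30, with 15.8% within 10 kb and 4.94% over 100 kb, and a pseudocount of 10 gave 9.69% over 100 kb. Without a filter there were 792 and 81 (4.91% and 1.79%), and with a mean of at least 50 there were 56 and 13 among 260 tested (45.2% and 14.6%). Counting only tested members with a het mean of at least 10, chosen after seeing the data, gave 44 rises, with 4.60% within 10 kb and 1.01% over 100 kb. Fewer or more copies counted is part of all 3. edgeR gave 6.61% over 100 kb, and DESeq2 96 falls. Gene size factors gave 26 falls (30.1% and 10.4%), and quantile normalization 115 falls (16.5% and 6.28%), so that 73.3% of calls were rises against 90.02% as reported. The median of all tested copies was 0.03 as reported, 0.34 with gene size factors, -0.41 with quantile normalization, -0.12 with edgeR, -0.15 with DESeq2 and 0.25 with a mean of at least 50. Leaving out 1 library gave 249 to 525 rises, 12 to 45 falls, 13.2% to 27.7% within 10 kb and 4.14% to 9.49% over 100 kb; without KO replicates 1 and 2 there were 249 and 300 rises. Long copies over 6 kb gave 10.1% over 100 kb. The rises beside a risen gene (4 as reported) numbered 1, 13, 11, 1, 9, 8 and 23 with a pseudocount of 0.1 and of 10, no filter, a mean of at least 50, no trend, edgeR and DESeq2, and 0 to 5 with 1 library left out: 0 without KO replicate 1 or KO replicate 3, 1 without KO replicate 2 and 2 without het replicate 2. Member reads differed by 0.225 percentage points of TE reads and by 0.239 per 100 gene reads, or 0.167 to 0.311 with 1 library left out. For Morc1 the log2 change was -2.03 without trend (adjusted p = 0.089) and -1.88 to -2.31 with 1 library left out. Beyond the size of the set tested, the cause of these changes was not tested.

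With the replicate number as a block, limma gave 19.0% within 10 kb and 2 rises beside a risen gene, and edgeR gave 243 rises, 15 falls, 14.1% within 10 kb, 4.41% over 100 kb, 0 rises beside a risen gene and a Morc1 log2 change of -2.04 (adjusted p = 0.0717). Deviations of same-numbered libraries correlated at 0.146, -0.243 and -0.117, and each KO library correlated most with a het library of another number. With 3 libraries per group, these values cannot decide whether the numbers pair the samples. Sequence groups among members and other sequence features could not be computed and were not run. The filter kept 24359 members, with a mean under 10, out of the test.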

Other observations

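Members with a mean under 10, which were not tested, had 0.202, 0.189 and 0.342 reads per 100 gene reads in het. Their KO values were 0.271, 0.449 and 0.339. The groups overlapped, and the KO mean was 1.45-fold the het mean. As a share of the reads of the TE table these copies had 3.38% ± 0.471 in het and 3.35% ± 0.295 in KO (SD, n = 3), so the denominators differ in direction. The tested members that were not called had 0.194, 0.182 and 0.249 reads per 100 gene reads in het and 0.212, 0.283 and 0.258 in KO, which overlap as well.

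Among members beside a risen long copy within 10 kb, 25 of 59 rose on the 5′ side and same strand (42.4%), 20 of 51 on the 5′ side and opposite strand (39.2%), 14 of 37 on the 3′ side and same strand (37.8%) and 7 of 28 on the 3′ side and opposite strand (25%). These counts carry no test.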
